A study of Homo sapiens with 12 samples.

Results

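The genes described here are 10 feedback genes of the RAS-ERK pathway: the phosphatases DUSP4, DUSP5 and DUSP6, the Sprouty genes SPRY1, SPRY2 and SPRY4, the Sprouty-related genes SPRED1 and SPRED2, and the ETS transcription factors ETV4 and ETV5. They were taken by name from the expression tables, 10 of the 23621 rows that are not spike-in RNAs. All 10 were active, meaning that at least 1 of the 12 libraries had an FPKM (read fragments scaled by transcript length and library size) above 1, as did 14251 genes in all. RNA-seq was done in 2 human ovarian cancer cell lines, KURAMOCHI (Ku) and COV362 (Cov). Every library was labelled untransduced, so no group carried a transgene. Cells of each line received the vehicle DMSO, THZ1 at 50 nM or THZ1 at 250 nM for 6 hr, with 2 replicates per condition. Ku cells were kept in RPMI and Cov cells in DMEM, each with fetal bovine serum. The study reports that treatment was in duplicates, ahead of RNA isolation. Neither the labels nor the methods state whether replicates were separate cultures, so the p-values measure the spread between these libraries, which may be technical.

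Growth factor receptors switch on RAS, which passes the signal through RAF and MEK kinases to the ERK kinases. ERK then raises the transcription of its own inhibitors. DUSP phosphatases remove the activating phosphates from MAP kinases, DUSP6 in the cytoplasm and DUSP4 and DUSP5 in the nucleus, while Sprouty and SPRED proteins act further upstream, at receptor adaptors, RAS and RAF. ETV4 and ETV5 are ETS factors whose genes are switched on by ERK and held back by the repressor CIC when ERK is low. The mRNAs of many of these genes turn over quickly, and their levels are used as readouts of ERK output. THZ1 is a covalent inhibitor of CDK7 that also acts on CDK12 and CDK13, kinases of the RNA polymerase II transcription cycle. In these data ERK activity itself was not measured.

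The sequences upstream of DUSP6 and SPRY4 are shown because DUSP6 holds the CIC octamer searched for here and SPRY4 responded unlike the other genes. RefSeq promoter windows (GRCh38.p14, 250 bases before and 50 after an annotated start) were matched by symbol. Those of 6 of the 10 genes were used, with 10 starts in all. DUSP5, ETV4 and ETV5 had no entry, and DUSP4 was left out of the search. Whether these genes hold any of the sites was therefore not tested. Words for 4 kinds of site were searched on both strands of the windows. The CIC octamer was searched as TGAATGAA, TGAATGGA, TCAATGAA and TCAATGGA, and 3.77% of all 35116 windows held at least 1 of these. DUSP6 held 2, one of them in the stretch printed here and the other at base 2 after the start, and no other window of the 6 genes held any. An AP-1 site (TGAGTCA or TGACTCA, in 4.95% of windows) was found only at the second SPRED2 start, beginning 6 bases before it and running across it. ETS words (CCGGAAGT and CCGGAAAT, 4.91% of windows) and the CRE word TGACGTCA (1.85%) matched in none of the 10 windows. A match describes the letters of a window and does not show that a factor binds there. The 250 bases before the start are printed 5′ to 3′ on the gene's strand, the minus strand for both genes, and the capitals mark the CIC octamer, read as TCCATTGA on this strand.
DUSP6 at chr12:89352502-89352751: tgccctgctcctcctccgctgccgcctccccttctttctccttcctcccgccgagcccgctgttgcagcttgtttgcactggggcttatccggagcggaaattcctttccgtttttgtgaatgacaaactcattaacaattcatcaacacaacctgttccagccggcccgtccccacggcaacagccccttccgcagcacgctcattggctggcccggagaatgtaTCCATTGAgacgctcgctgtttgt
SPRY4 at chr5:142324248-142324497: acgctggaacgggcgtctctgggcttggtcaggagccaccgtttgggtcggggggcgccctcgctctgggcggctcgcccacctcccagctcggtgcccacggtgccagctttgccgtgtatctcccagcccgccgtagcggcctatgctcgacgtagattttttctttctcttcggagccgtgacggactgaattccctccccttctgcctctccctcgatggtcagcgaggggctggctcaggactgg

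At 250 nM THZ1, the test called 9 of the 10 genes lower in Ku cells, and all 10 were in Cov cells. Of its DMSO level SPRY1 kept 1.28% (Ku) and 4.09% (Cov), while SPRY4 kept 42.9% and 69.3%. On this spike-in scale most active genes fell as well. In Ku cells 68.6% of them were called lower and 0.0491% higher, and in Cov cells 84% and 0.105%, and the counts of feedback genes called are to be read against these shares. The median log2 fold change of the 10 genes was −2.49 in Ku and −2.55 in Cov cells, beside −1.11 and −1.31 for all active genes. In Ku cells all 10 lay below the median of active genes, SPRY4 only just (−1.19), and in Cov cells 8 did, with SPRY4 and ETV4 above it. The place of SPRY4 in Ku cells depended on the filter. With a minimum of 10 FPKM the Ku median was −1.29, and SPRY4 lay above it. Calls required limma's adjusted p to be under 0.001 and the log2 fold change to pass 0.5 in size, on the log2(FPKM + 1) scale, which understates the change of low genes. In bulk RNA, fewer cells expressing a gene and less RNA per cell cannot be told apart. When libraries were instead scaled by the median of ratios, which sets the typical gene near no change, 8 of the 10 genes were called lower in each line, the exceptions being SPRY4 and ETV4. Under that scaling 19% of active genes were called lower and 11.1% higher in Ku cells. The shares in Cov cells were 18.9% and 8.57%.

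**Figure D1:**
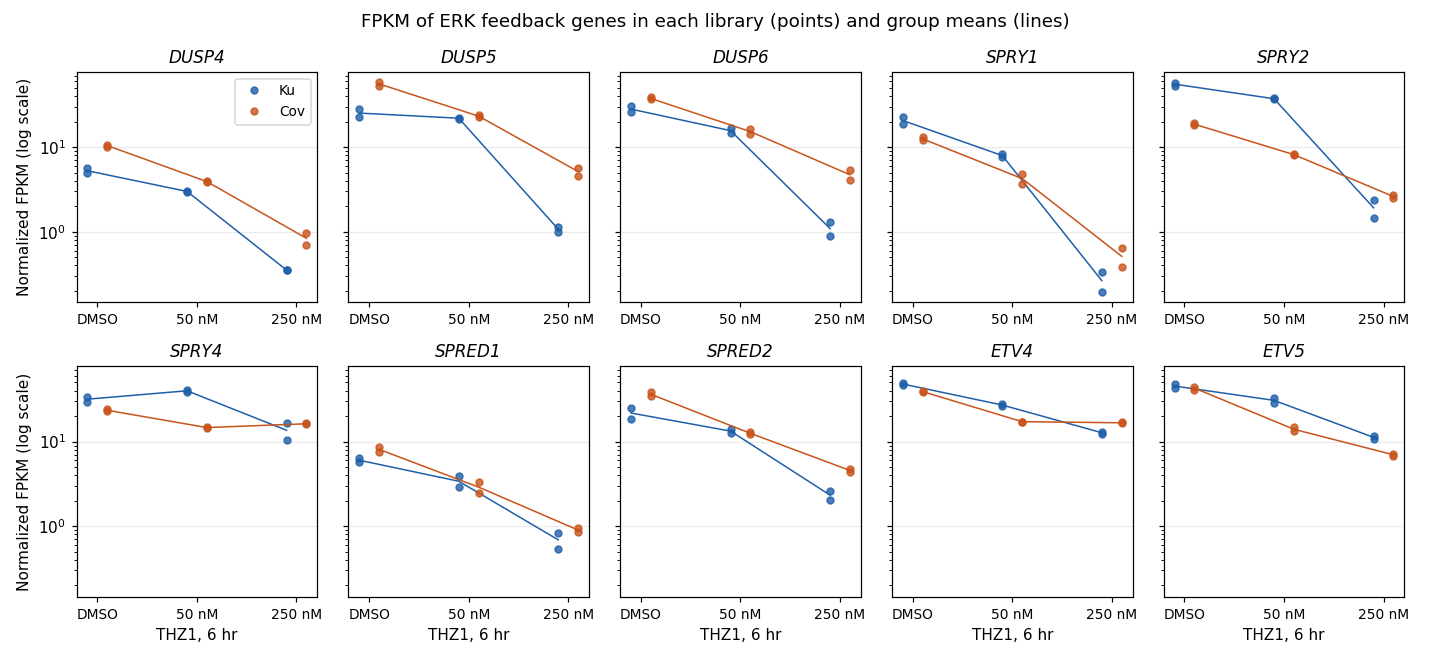
Spike-in-normalized FPKM (log scale) of each gene in DMSO and at 50 nM and 250 nM THZ1 for 6 hr; points are libraries and lines join the means of 2 replicates, Ku in blue and Cov in orange. In both lines the libraries of 9 genes step down from DMSO to 50 nM to 250 nM without overlap, and those of SPRY4 do not. Of active genes 66.7% (Ku) and 73.8% (Cov) have that order. For ETV4 in Cov cells the step between the doses is slight (log2 fold change −0.04, not called).

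In DMSO the lines carried lineage genes of serous epithelium in part, and markers of other cell types were low. PAX8 and SOX17, transcription factors of Müllerian epithelium, had mean FPKM of 136 and 143 in Ku cells and 124 and 117 in Cov cells. The keratins KRT8 and KRT18 were between 792 and 2432 in both lines. WT1 was 56.8 in Ku and 0.653 in Cov cells, KRT7 was 4.61 and 1355, EPCAM 4.13 and 162, and MUC16, which encodes CA-125, 0.166 and 5.71. PTPRC, PECAM1 and DCN, markers of leukocytes, endothelium and fibroblasts, were at most 0.338 in both lines, and COL1A1, another fibroblast marker, was 2.53 and 3.17. Total FPKM per library ran from 607016 to 1234308 in Ku cells and from 758681 to 1686567 in Cov cells, and replicates correlated with r between 0.968 and 0.983 across active genes on the log2 scale. The tables hold a lowest value of 0.0783 to 0.119, depending on the library, in place of 0. No feedback gene reached it, the lowest being SPRY1 at 0.194 in a Ku library at 250 nM. Read counts were not part of the tables used here, so depth is unknown and no counting interval is given. An exact two-sided permutation test of 2 against 2 libraries has 0.33 as its smallest p, so single genes were tested only through limma's fit to all active genes.

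In DMSO the feedback genes differed widely in FPKM, a scale per transcript length. In Ku cells the order of mean DMSO levels was SPRY2 at 55.5, ETV4 at 48, ETV5 at 45.4, SPRY4 at 31.8, DUSP6 at 28.2, DUSP5 at 25.3, SPRED2 at 21.8, SPRY1 at 20.7, SPRED1 at 6.03 and DUSP4 at 5.26. Libraries of neighbouring genes overlapped for ETV4 and ETV5, and for each neighbouring pair from SPRY4 down to SPRY1. In Cov cells the order was DUSP5 at 55.9, ETV5 at 42.9, ETV4 at 39, DUSP6 at 37.6, SPRED2 at 36.3, SPRY4 at 23.5, SPRY2 at 18.7, SPRY1 at 12.5, DUSP4 at 10.4 and SPRED1 at 8.1. There, among neighbours, only DUSP6 and SPRED2 overlapped. At 250 nM the 3 highest genes were SPRY4, ETV4 and ETV5 in both lines, at means of 13.6, 12.7 and 11.2 in Ku cells and of 16.3, 16.7 and 6.99 in Cov cells. The other 7 genes then lay between 0.264 and 2.33 in Ku cells and between 0.512 and 5.14 in Cov cells. The tables of the lines were normalized separately, so levels and changes were not tested between lines.

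DUSP6, the cytoplasmic ERK phosphatase, fell in both lines at 250 nM. Its gene (ENSG00000139318) lies on the minus strand of chromosome 12 at 89741012 to 89746278 in GRCh37, the build of the files. In Ku cells its FPKM was 30.3 and 26 in the DMSO libraries, 16.6 and 14.7 at 50 nM, and 0.893 and 1.29 at 250 nM. In Cov cells the values were 36.6 and 38.6 in DMSO, 14.3 and 16.2 at 50 nM, and 5.36 and 4.06 at 250 nM. The 3 conditions did not overlap in either line. At 250 nM the mean was 25.8-fold lower than in DMSO in Ku cells (log2 fold change −3.80 ± 0.15 SE, adjusted p = 8.2e-06) and 7.99-fold lower in Cov cells (−2.77 ± 0.13, adjusted p = 1.36e-06). Only 0.954% of active genes fell further than DUSP6 in Ku cells, and in Cov cells 5.15% did. The exons of DUSP6 share 1105 bases with an antisense lncRNA, ENSG00000274021. The library kit keeps strand, but the strand setting of the quantification is not given in the sources used here, so reads of the 2 genes may not be told apart.

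DUSP5, a nuclear phosphatase for ERK, kept most of its level at 50 nM in Ku cells and little at 250 nM. The gene (ENSG00000138166) is on chromosome 10, plus strand, 112257665 to 112271291. Its FPKM in Ku cells was 27.9 and 22.6 in DMSO, 22.2 and 21.8 at 50 nM, and 1.14 and 1 at 250 nM. The lowest DMSO library was thus only just above the 50 nM libraries, and limma put the change at 50 nM at −0.19 (log2) with a 95% interval from −0.51 to 0.13 (adjusted p = 0.264). Scaled by the median of ratios it was 0.34, so its direction at 50 nM depends on the scale. At 250 nM the mean was 23.6-fold lower (−3.66 ± 0.13, adjusted p = 7.27e-06). In Cov cells DUSP5 went from 53.5 and 58.3 in DMSO to 22.6 and 23.9 at 50 nM and to 4.54 and 5.74 at 250 nM. Its log2 fold change there was −1.23 at 50 nM (adjusted p = 6.67e-05) and −3.22 at 250 nM (adjusted p = 8.34e-07), on this scale the largest fall of the 10 genes in that line.

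DUSP4, the other nuclear phosphatase of the group, was expressed lower than DUSP5 and DUSP6 in both lines. Its gene (ENSG00000120875) is on chromosome 8, minus strand, 29190581 to 29208201. In Ku cells FPKM went from 5.62 and 4.89 in DMSO to 3.05 and 2.95 at 50 nM and to 0.351 and 0.353 at 250 nM. In Cov cells it went from 10.1 and 10.7 to 3.83 and 4 and then to 0.706 and 0.966. Conditions did not overlap in either line, and the share of the DMSO mean left at 250 nM was 6.7% (Ku) and 8.02% (Cov). The log2 fold change at 250 nM was −2.21 ± 0.11 in Ku cells (adjusted p = 1.4e-05) and −2.64 ± 0.11 in Cov cells (adjusted p = 9.96e-07), on a scale where the added 1 weighs more at these low levels.

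SPRY1 lost the largest share of its mRNA among the 10 genes in both lines. Sprouty proteins restrain receptor tyrosine kinase signalling to RAS, and SPRY1 (ENSG00000164056) lies on chromosome 4, plus strand, 124317950 to 124324915. In Ku cells its FPKM was 22.8 and 18.5 in DMSO, 7.69 and 8.21 at 50 nM, and 0.194 and 0.335 at 250 nM. In Cov cells it was 12 and 13 in DMSO, 3.64 and 4.86 at 50 nM, and 0.638 and 0.386 at 250 nM. The means at 250 nM were 78.2-fold and 24.5-fold lower than in DMSO (log2 fold changes −4.09 ± 0.15 and −3.17 ± 0.15, adjusted p = 7.48e-06 and 1.27e-06). At 50 nM it kept 38.5% in Ku cells, the lowest share of the 10 genes, but its adjusted p of 0.00123 there just missed the threshold. Where only genes above 10 FPKM in a library were tested, the adjusted p was 0.000682.

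SPRY2 fell mainly between the doses in Ku cells. The gene (ENSG00000136158, chromosome 13, minus strand, 80910111 to 80915261) was the highest of the 10 in Ku cells given DMSO, at 57.9 and 53.2 FPKM. It measured 37.6 and 37 at 50 nM and 1.45 and 2.39 at 250 nM. The log2 fold change was −0.56 at 50 nM (adjusted p = 0.0276, not called), and −3.73 between 50 nM and 250 nM (adjusted p = 4.51e-05), where 0.203% of active genes fell further. In Cov cells SPRY2 measured 18.2 and 19.2 in DMSO, 8.33 and 7.97 at 50 nM, and 2.5 and 2.71 at 250 nM. The steps there were closer in size, −1.10 from DMSO to 50 nM (adjusted p = 4.73e-05) and −1.35 from 50 nM to 250 nM (adjusted p = 6.62e-05).

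SPRY4 stood apart from SPRY1 and SPRY2 in both lines. SPRY3, outside the 10 genes and low in DMSO (means of 0.411 in Ku and 1.13 in Cov cells), kept 39.3% and 35.1% at 250 nM. The SPRY4 gene (ENSG00000187678) is on chromosome 5, minus strand, 141689992 to 141706020. In Ku cells its FPKM was 34 and 29.5 in DMSO, 40.8 and 39 at 50 nM, and 10.5 and 16.8 at 250 nM. Both 50 nM libraries lay above both DMSO libraries, at 126% of the DMSO mean, and both 250 nM libraries lay below them. Its change at 50 nM was 0.32 on the log2 scale with a 95% interval from −0.18 to 0.83 (adjusted p = 0.222, not called), and 98.2% of active genes had a lower value. At 250 nM it was −1.19 ± 0.20 (adjusted p = 0.00164, not called), close to the median of active genes. The 250 nM replicates differed by 0.63 on the log2(FPKM + 1) scale, the widest gap of the 10 genes on that scale, and without replicate 2 of that condition the change was −1.51 (adjusted p = 0.000304, called).

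In Cov cells SPRY4 fell at 50 nM and fell no further at 250 nM. Its FPKM was 22.7 and 24.2 in DMSO, 14.9 and 14.4 at 50 nM, and 16.2 and 16.4 at 250 nM, so that the 250 nM libraries lay between the other conditions. Against DMSO the log2 fold change was −0.64 ± 0.08 at 50 nM (adjusted p = 0.000261) and −0.50 ± 0.08 at 250 nM (adjusted p = 0.00073), the latter at the very edge of the fold threshold. Between the doses it was 0.14, with a 95% interval from −0.06 to 0.34 (adjusted p = 0.188). At 250 nM 88.9% of active genes had a lower value than SPRY4. With median-of-ratios scaling its direction turned, to 0.33 at 50 nM (adjusted p = 0.013) and 1.03 at 250 nM (adjusted p = 0.000132, called higher), and in Ku cells it was 0.20 at 250 nM (adjusted p = 0.383). The call at 250 nM was lost without either DMSO library or either 250 nM library, at adjusted p from 0.00362 to 0.00796. The call at 50 nM was lost without either DMSO library (adjusted p = 0.00162 and 0.00328) or without 50 nM replicate 2 (adjusted p = 0.00113).

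**Figure D2:**
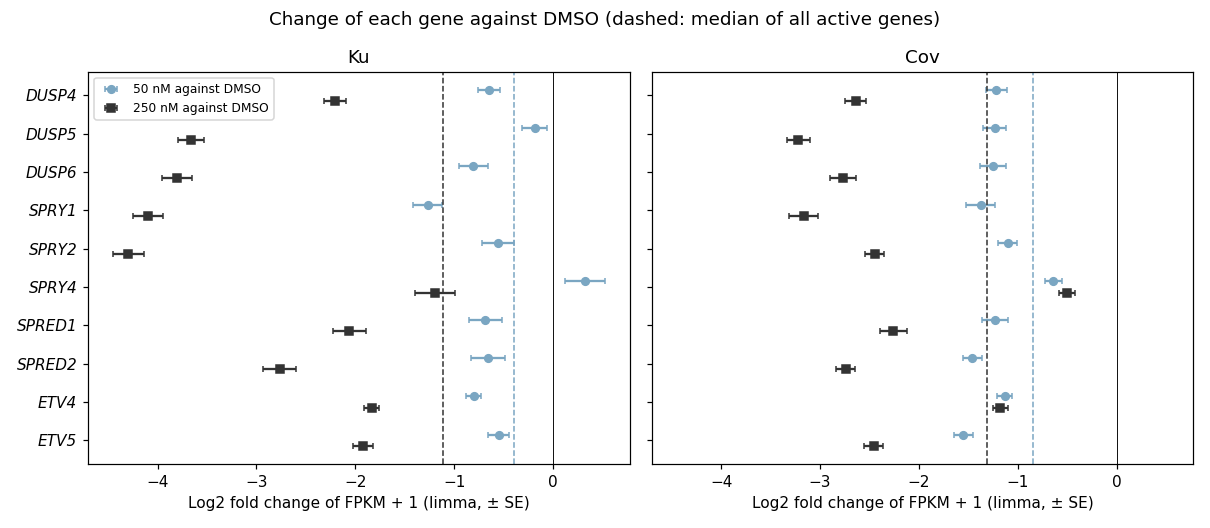
Log2 fold change of FPKM + 1 against DMSO for each gene at 50 nM (circles) and 250 nM (squares), with limma's SE as bars, in Ku and Cov cells; dashed lines mark the median of all active genes at each dose. SPRY4 at 250 nM sits at −1.19 in Ku and −0.50 in Cov cells, to the right of the other genes, and ETV4 shows nearly the same value at both doses in Cov cells.

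Both SPRED genes fell at 250 nM in each line, to between 10.7% and 12.6% of DMSO. SPRED proteins hold the RAS regulator neurofibromin at the membrane and block RAF activation. SPRED1 (ENSG00000166068, chromosome 15, plus strand, 38545037 to 38649450) measured 6.35 and 5.72 in Ku DMSO libraries, 3.91 and 2.9 at 50 nM, and 0.542 and 0.838 at 250 nM. Its Cov values were 7.62 and 8.58, then 2.45 and 3.35, then 0.953 and 0.848. At 250 nM the share of the DMSO mean that remained was 11.4% (Ku) and 11.1% (Cov) (log2 fold changes −2.06 ± 0.17 and −2.26 ± 0.13, adjusted p = 5.89e-05 and 3.17e-06). SPRED2 (ENSG00000198369, chromosome 2, minus strand, 65537985 to 65659771) was expressed higher. Its FPKM in Ku cells was 24.9 and 18.7 in DMSO, 14 and 12.6 at 50 nM, and 2.07 and 2.6 at 250 nM, and in Cov cells it was 34.3 and 38.2, then 12.2 and 12.9, then 4.78 and 4.35. The shares that remained at 250 nM were 10.7% and 12.6% (−2.77 ± 0.17 and −2.74 ± 0.10, adjusted p = 2.29e-05 and 8.25e-07). Neither gene overlapped between conditions in either line.

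ETV4 was the only one of the 10 genes called at 50 nM in Ku cells, and its response levelled off in Cov cells. The gene (ENSG00000175832) is on chromosome 17, minus strand, 41605212 to 41656988. In Ku cells its FPKM was 49.5 and 46.5 in DMSO, 27.7 and 26.5 at 50 nM, and 12.4 and 13.1 at 250 nM. The log2 fold change was −0.80 ± 0.08 at 50 nM (adjusted p = 0.000639) and −1.83 ± 0.08 at 250 nM (adjusted p = 9.06e-06). In Cov cells it measured 38.9 and 39.1 in DMSO, 17.3 and 17.2 at 50 nM, and 17 and 16.4 at 250 nM. The change against DMSO was −1.13 at 50 nM (adjusted p = 2.61e-05) and −1.18 at 250 nM (adjusted p = 5.25e-06), and between the doses it was −0.04 with a 95% interval from −0.23 to 0.15 (adjusted p = 0.676). With median-of-ratios scaling the change at 250 nM was −0.44 in Ku cells (adjusted p = 0.00122, not called) and turned to 0.38 in Cov cells (adjusted p = 0.00427, not called). The call at 50 nM in Ku cells was lost without any 1 of the 6 Ku libraries, at adjusted p from 0.00225 to 0.00644. ETV4 shares 68 exon bases with DHX8 on the other strand.

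ETV5, its close relative, kept falling with dose in both lines. The gene (ENSG00000244405) lies on chromosome 3, minus strand, 185764103 to 185828107. Its FPKM in Ku cells was 48.4 and 42.5 in DMSO, 32.8 and 28.6 at 50 nM, and 10.9 and 11.6 at 250 nM. In Cov cells it was 41.2 and 44.7, then 13.2 and 14.8, then 7.17 and 6.81. Conditions did not overlap in either line. The log2 fold change at 250 nM was −1.92 ± 0.10 in Ku cells (adjusted p = 1.64e-05) and −2.46 ± 0.10 in Cov cells (adjusted p = 9.53e-07). At 50 nM in Cov cells it was −1.55 (adjusted p = 2.25e-05), the largest fall of the 10 genes at that dose. ETV5 shares 164 exon bases with DGKG on the same strand.

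At 50 nM in Ku cells only ETV4 was called lower and none higher, where 11.3% of active genes were called lower and 0.0842% higher. The median log2 fold change of the 10 genes was −0.65, beside −0.40 for all active genes. Of the genes not called, DUSP4, DUSP6, SPRED1, SPRED2 and ETV5 had log2 fold changes between −0.81 and −0.55 with adjusted p from 0.00467 to 0.019. In Cov cells all 10 were called lower at 50 nM, where 70.5% of active genes were called lower and 0.0772% higher, and their median was −1.23 beside −0.85. Without DMSO replicate 2 of Cov cells 6 of the 10 were called, beside 30.3% of active genes, DUSP6, SPRY1, SPRY4 and SPRED1 being lost at adjusted p from 0.00137 to 0.00328. With median-of-ratios scaling none of the 10 was called in either line at 50 nM, where 2.72% of active genes were called lower and 0.519% higher in Ku cells. In Cov cells these shares were 0.772% and 0.14%. The comparisons of both doses with DMSO share the same DMSO libraries.

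Between the doses, all 10 genes were called lower at 250 nM than at 50 nM in Ku cells, where 36% of active genes were called lower and 0.0421% higher. Their median log2 fold change was −1.84 beside −0.62 for all active genes, and it ran from −1.03 for ETV4 to −3.73 for SPRY2. The count in Ku cells depended on single libraries, falling to 4 without 50 nM replicate 1 or 250 nM replicate 1, to 6 without 50 nM replicate 2 and to 5 without 250 nM replicate 2. The share of active genes called lower in those fits was 5.89%, 5.55%, 11.2% and 7.17%. In Cov cells 8 were called lower, all but SPRY4 and ETV4, where 24.4% of active genes were called lower and 0.0842% higher, and their median was −1.31 beside −0.41. Fewer were called in Cov cells with median-of-ratios scaling or with the replicate number as a block, where 7.92% and 7.93% of active genes were called lower. For 9 of the 10 genes in each line, the conditions were fully ordered: no 50 nM library reached a DMSO library, and no 250 nM library reached a 50 nM library. Among active genes 66.7% (Ku) and 73.8% (Cov) had that order, and SPRY4 was the exception among the 10 in both lines.

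**Figure D3:**
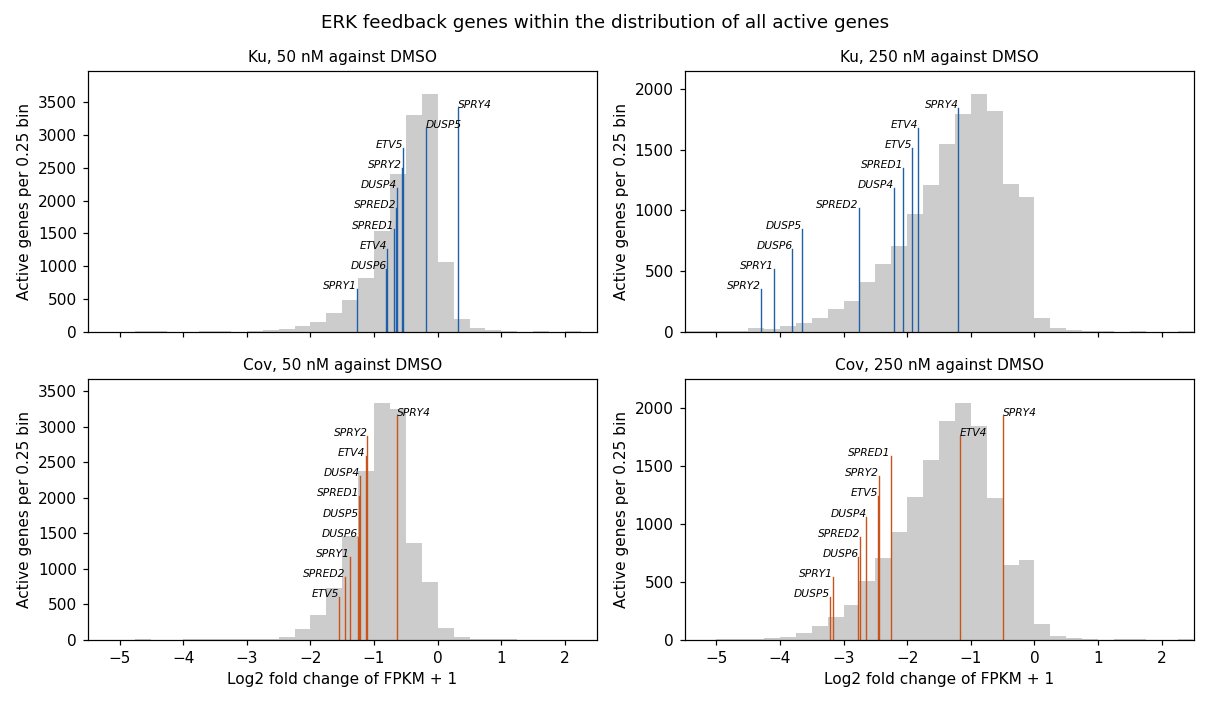
Number of active genes per 0.25-wide bin of log2 fold change against DMSO (grey), for each line and dose, with each of the 10 genes as a labelled vertical line (line height only separates the labels). At 250 nM all 10 genes lie left of the median of active genes in Ku cells and 8 do in Cov cells; SPRY4 lies near the median in Ku cells and to its right in Cov cells.

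The 10 genes differed in how closely their responses ran together. Likeness was measured as the root mean square difference over the 4 log2 fold changes against DMSO (both doses in both lines). DUSP4 and SPRED1 were closest, at 0.206, followed by SPRED1 and ETV5 at 0.212 and DUSP4 and ETV5 at 0.243. DUSP6 was 0.325 from SPRY2 and 0.344 from SPRY1. SPRY4 was 2.16 from SPRY1, the farthest pair, and its nearest member was ETV4 at 0.771. Among 8902 other active genes with a DMSO mean of at least 5 FPKM in both lines, those most like DUSP6 were ZNF574 (0.116), TSC22D1 (0.119) and RBM7 (0.122). The nearest to ETV5 were TMCC1 (0.0496), C15orf57 (0.0528) and TRAM2 (0.062), and the nearest to SPRY4 were SCARF2 (0.193), VANGL2 (0.218) and SLC6A6 (0.241). These are descriptions over 4 values from 12 libraries, with no test.

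Of 7 other MAP kinase phosphatases, 6 were called lower at 250 nM in each line, beside 68.6% of active genes in Ku and 84% in Cov cells, with medians of −2.19 in Ku and −2.86 in Cov cells. DUSP1, an early-response phosphatase of several MAP kinases, measured 25.4 and 24 FPKM in Ku DMSO libraries and 0.659 and 0.655 at 250 nM (log2 fold change −3.96, adjusted p = 6.52e-06). In Cov cells DUSP1 went from 31 and 32.8 to 1.83 and 2.21 (−3.45, adjusted p = 8.16e-07). DUSP7, a cytoplasmic phosphatase related to DUSP6, changed by −2.95 in Ku cells and by −3.42 in Cov cells (adjusted p = 1.36e-05 and 8.16e-07). With median-of-ratios scaling 5 of the 7 were called lower in each line, beside 19% (Ku) and 18.9% (Cov) of active genes. On the log2(FPKM + 1) scale, by which the genes of this and the following lists are ranked and which compresses the change of genes near 1 FPKM, the smallest changes were those of DUSP8 (−0.66 and −1.03, called lower in both lines) and DUSP9 (−0.45 and −0.49, adjusted p = 0.0134 and 0.00902, not called). Of 3 paralogs, SPRY3, SPRED3 and ETV1, the test called 2 lower in Ku and 3 in Cov cells. These counts are near the shares of active genes called, and the count in Ku cells was 1 without DMSO replicate 2 or either 250 nM library. Their changes ran from −1.02 to −0.28 and from −1.24 to −0.61. With median-of-ratios scaling none was called in either line.

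The cascade upstream of ERK fell by about as much as the typical gene. Of 20 adaptor, RAS, RAF, MEK and ERK genes, 19 were called lower at 250 nM in Ku and 20 in Cov cells, with medians of −1.35 and −1.39. Among all active genes the shares called lower were 68.6% and 84%. Without a single library the count in Ku cells dropped to 12 (DMSO replicate 1), 9 (250 nM replicate 1) or 11 (250 nM replicate 2), where 51.2%, 42.7% and 44.3% of active genes were called lower. SOS1, a RAS exchange factor, changed by −2.36 in Ku and by −2.43 in Cov cells (adjusted p = 2.08e-05 and 1.03e-06). On that scale the smallest falls were in the adaptor GAB1 (−0.64, adjusted p = 0.000986) and the kinase MAP2K1 (−0.71) in Ku cells, and in the scaffold KSR1 (−0.58) and GAB1 (−0.63) in Cov cells. In FPKM, however, GAB1 kept 22.4% of its DMSO mean in Ku and 27.2% in Cov cells, and KSR1 kept 31.5% in Cov cells, all from means near 1 FPKM or below. Scaling by the median of ratios left 2 of the 20 called lower in Ku cells, with 4 called higher, and 4 called lower in Cov cells, with 1 called higher, beside 19% and 11.1% of active genes (Ku) and 18.9% and 8.57% (Cov).

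Among 11 other genes commonly induced by ERK, the changes in Cov cells went both ways. At 250 nM the test called 8 of them lower in Ku and 9 in Cov cells, with medians of −1.63 and −1.56, and in Cov cells 2 were called higher. Of all active genes, 68.6% and 84% were called lower and 0.0491% and 0.105% higher. With median-of-ratios scaling the test called 5 of the 11 lower and 1 higher in Ku cells. For Cov cells it called 3 lower and 3 higher. The shares of active genes on that scale were 19% lower and 11.1% higher (Ku) and 18.9% and 8.57% (Cov). IER3, a stress-responsive early gene, measured 160 and 168 FPKM in Cov DMSO libraries, 114 and 108 at 50 nM, and 299 and 311 at 250 nM (0.89 against DMSO, adjusted p = 2.1e-05). EGR1, an early-response transcription factor, measured 7.4 and 6.96, then 4.89 and 4.32, then 12.1 and 12.6 in Cov cells (0.71, adjusted p = 0.000285). The count called higher was 1 without either Cov DMSO library or either 250 nM library. In Ku cells EGR1 was instead called lower, going from 23.2 and 20.7 to 2.03 and 3.02 (−2.71, adjusted p = 2.25e-05), and IER3 stayed between 112 and 114 in DMSO and 106 and 119 at 250 nM (−0.01, adjusted p = 0.925). FOSL1, an AP-1 subunit, had the largest change in Cov cells on the log2(FPKM + 1) scale (−2.83), followed by PHLDA1 (−2.62), and ERRFI1, an inhibitor of EGF receptor signalling, fell by 2.59 on the log2 scale in Ku cells. The line difference for EGR1 was not tested. With median-of-ratios scaling IER3 was called higher in both lines at 250 nM (1.44 in Ku and 2.496 in Cov cells). LIF, a cytokine, was then called higher in Cov cells (0.85), where the deposited scale gave −0.70, called lower.

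The regulators that set ERK-responsive transcription were called lower at 250 nM, 11 of 11 in each line, beside 68.6% of active genes in Ku and 84% in Cov cells, with medians of −1.78 in Ku and −1.98 in Cov cells. ERF, an ETS repressor that ERK removes from the nucleus, had the largest fall in Ku cells, from 118 and 123 FPKM to 6.72 and 7.33 (−3.92, adjusted p = 4.94e-06). ETS2, an ETS activator, had the largest fall in Cov cells (−3.70, adjusted p = 8.16e-07). RFWD2, the ubiquitin ligase that targets ETV proteins, changed by −2.36 in Ku cells, and ETS1 by −2.42 in Cov cells. CIC, the repressor of the ETV and DUSP6 genes, had the smallest fall in Cov cells (−1.29) and SRF, the partner of the ELK factors, the next smallest (−1.30), while in Ku cells ETS1 (−1.24) and ELK1 (−1.27) changed least. With median-of-ratios scaling 4 of the 11 were called lower in each line, beside 19% (Ku) and 18.9% (Cov) of active genes, and none higher, beside 11.1% and 8.57%.

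At 50 nM in Ku cells 2 of the 7 phosphatases, 0 of the 3 paralogs, 0 of the 20 cascade genes, 2 of the 11 induced genes and 3 of the 11 regulators were called lower. Without any single Ku library at most 1 gene of any list was, where between 0.0421% and 0.919% of active genes were called lower. In Cov cells 6 of 7, 2 of 3, 15 of 20, 8 of 11 and 11 of 11 were called lower at 50 nM, where 70.5% of active genes were. In Ku cells that share was 11.3%. Without Cov DMSO replicate 2 these counts were 6, 1, 3, 5 and 6, beside 30.3% of active genes, and without DMSO replicate 1 the cascade count was 5, beside 48.4%. No listed gene was called higher at 50 nM in either line. With median-of-ratios scaling no listed gene was called lower at 50 nM in Cov cells, and GRB2, an adaptor (0.74, adjusted p = 0.000788), and ERRFI1 (0.84, adjusted p = 0.000566) were called higher in Ku cells, while DUSP16 (−1.02, adjusted p = 0.000771) and DET1 (−1.07, adjusted p = 0.000936) were called lower there.

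**Figure D4:**
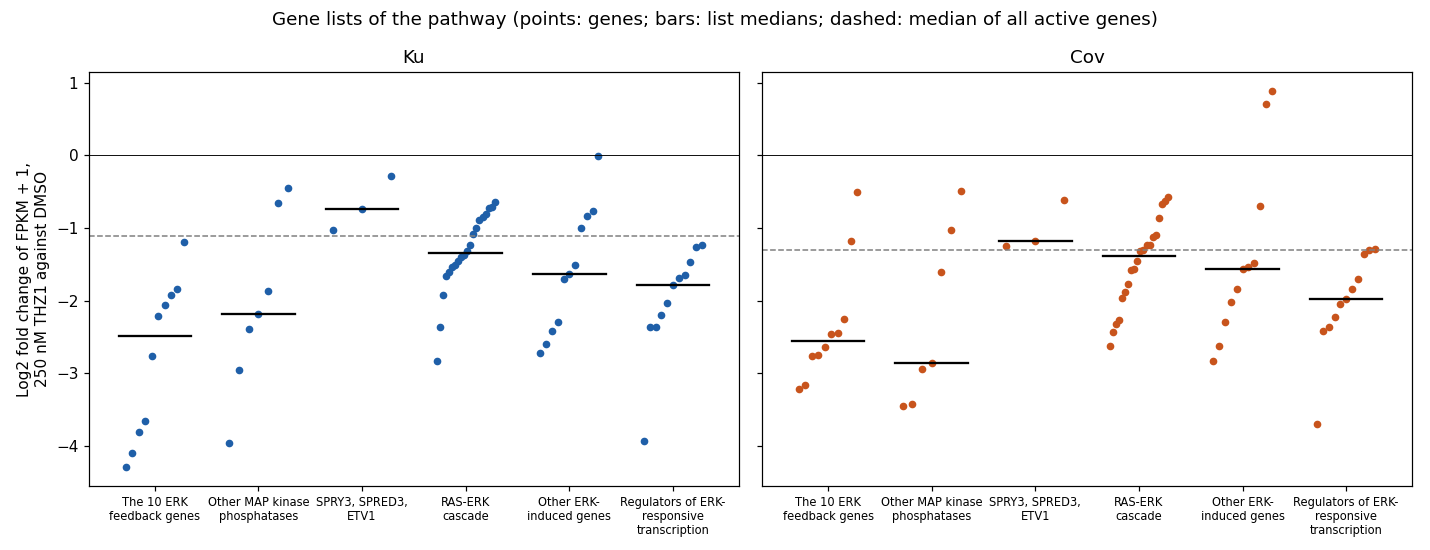
Log2 fold change of FPKM + 1 at 250 nM THZ1 against DMSO for the genes of each list (points) with the list median (bar) in Ku and Cov cells; the dashed line is the median of all active genes. The medians of the 10 feedback genes (−2.49 and −2.55) and of the other MAP kinase phosphatases (−2.19 and −2.86) lie below those of the other lists, and the 2 points above 0 in Cov cells are EGR1 and IER3.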

How the data were processed

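RNA-seq was done by the authors on 12 libraries. They added ERCC spike-in RNAs to RNA normalized by cell count, made stranded mRNA libraries, aligned reads to hg19 with HiSat and computed FPKM with cuffquant and cuffnorm. The deposited values are FPKM that the authors normalized to the spike-ins, with 23713 rows in the file of each line, of which 92 are ERCC RNAs and were left out. These values are not counts, so edgeR, which the study names, was not applied and depth is unknown. Samples were grouped by line and dose from their labels.

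Each line was fitted separately with limma 3.58.1 in R 4.3.3 on log2(FPKM + 1) over its 6 libraries (lmFit, contrasts and eBayes with a mean-variance trend). P-values are two-sided and adjusted by the Benjamini-Hochberg method over 14251 active genes. Calls needed an adjusted p under 0.001 with a log2 fold change past 0.5 in size. The script was tested on simulated data. Files were read by the data.table package (1.17.8) and plots made by matplotlib 3.10.9 under Python 3.11.15. Gene positions and exon overlaps are from GENCODE on GRCh37, promoter sequences from RefSeq on GRCh38.p14.

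The 10 genes and the pathway lists, written from general knowledge, were chosen with earlier results of these data known. All 10 genes are named. From each list the text names genes with the lowest or highest change at 250 nM in a line, at most 2 each, and genes called higher. LIF, GRB2, DUSP16 and DET1 were added after their values were seen, and 1 gene of the cascade list is not reported here by name. Alternatives changed the pseudocount (0.1), the filter (a minimum of 10 FPKM, the minimum applied to condition means, or none), the scaling (median of ratios), the samples (fits of the 2 groups alone, or each library left out in turn), the model (a replicate block, or eBayes without trend) and the threshold (adjusted p under 0.05, or log2 fold change past 1).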

Additional observations from a re-analysis of the deposited data

Results flagged for a closer look

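On the deposited scale the SPRY4 values of the 2 lines had opposite signs, with no overlap between the libraries of the conditions compared. From DMSO to 50 nM its log2 fold change was 0.323 in Ku and −0.642 in Cov cells. From 50 nM to 250 nM the values were −1.517 (Ku) and 0.141 (Cov). Of these 4 values, those in Cov cells at 50 nM and in Ku cells between the doses were called, and the others, whose 95% intervals spanned 0, were not. With median-of-ratios scaling the value in Cov cells at 50 nM was 0.331, the same sign as in Ku cells. The difference between the lines was not tested, because the tables were normalized separately. None of the other 9 genes showed opposite signs in this way. The share of all active genes that did was not computed, so how unusual the SPRY4 pattern is was not tested.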

How the results depend on the processing

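Of 636 recomputed values for single genes against DMSO, 584 kept their direction and their side of the threshold, 36 lost a call, 11 gained one and 5 changed direction. All 5 reversals came with median-of-ratios scaling: DUSP5 in Ku cells at 50 nM (0.345), SPRY4 in Ku cells at 250 nM (0.195), SPRY4 in Cov cells at 50 nM (0.331) and 250 nM (1.031), and ETV4 in Cov cells at 250 nM (0.376). That scaling moves the median of all active genes from −1.11 to −0.001 in Ku cells and from −1.31 to 0.011 in Cov cells at 250 nM.

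The count of feedback genes called at 50 nM in Ku cells (1) became 0 with no minimum (0.0127% of genes tested were called lower), median-of-ratios scaling (2.72%), only the 2 groups compared (0.0632%), eBayes without trend (8.13%) or a log2 fold change beyond 1 (8.62%), 2 with a minimum FPKM of 10 (9 of the genes tested, and 15.5% of all genes tested) and 8 at an adjusted p under 0.05 (40.2%), and it was 0 without any single library (0.0421% to 0.919%). In Cov cells at 50 nM the count (10) was 0 with median-of-ratios scaling (0.772% of active genes), and from 6 to 10 with a library left out. From 50 nM to 250 nM the count in Ku cells (10) was 6 with no minimum (8.05% of all rows) and from 4 to 8 with a library left out, and in Cov cells (8) it was 5 with median-of-ratios scaling (7.92% of active genes). The counts at 250 nM against DMSO (9 and 10) stayed between 8 and 10 in every alternative, while the share of all genes tested that were called lower ran from 19% to 82.5% in Ku cells and from 18.9% to 94% in Cov cells. The causes of these changes were not tested. A fit that leaves out 1 library assumes that the lone replicate varies like the other conditions.

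With the replicate number as a block, the count at 50 nM in Ku cells was 0 (ETV4, adjusted p = 0.00101), and from 50 nM to 250 nM in Cov cells it was 4 (6.94% and 7.93% of active genes were called lower). The block also ended the calls of SPRY4 in Cov cells at 50 nM (adjusted p = 0.00115) and 250 nM (adjusted p = 0.00225), and no other call of the 10 genes against DMSO. Across active genes, deviations of same-numbered libraries correlated with r between −0.07 and 0.028. A shift of whole libraries common to a replicate number cannot show in such a correlation, so a shared batch was not excluded.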
